A study of Mus musculus with 6 samples.

Results

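The genes described here encode the integrin receptors, the collagens and laminins of the extracellular matrix, the secreted matrix protein osteopontin (Spp1) and its receptor Cd44. They were taken by name: every gene symbol that begins with Itga or Itgb, every collagen alpha chain symbol, every laminin alpha, beta or gamma chain symbol, and Spp1 and Cd44. This gave 87 genes of 31032 distinct names in the deposited table. Of these, 27 were integrin chains, 44 were collagen chains, 10 were laminin chains and 4 (Itgb1bp1, Itgb1bp2, Itgb3bp and Itgbl1) matched the name pattern without being integrin chains.

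Transcripts were measured by RNA sequencing in parvalbumin-positive neurons of the dorsal root ganglion at lumbar level 4 of C57BL/6 mice at postnatal day 21. The knockout group (KO, 3 libraries) carried a conditional deletion of Dicer, the enzyme that makes mature microRNAs from their precursors, through a Cre allele driven by parvalbumin. The wild-type group (WT, 3 libraries) was of the same age and strain, and its label gives no further allele. The deletion is limited to cells that have switched on the parvalbumin promoter, and parvalbumin also marked the collected cells. The labels do not say how many animals or ganglia went into a library, so the p-values measure the spread between these libraries, which may be technical in part. Values are TPM, shares of all transcripts in a library that are scaled for transcript length and so can be compared between genes, and the sequencing depth behind them is unknown.

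Integrins are receptors made of 1 alpha and 1 beta chain, and the pair decides which matrix protein is bound. Laminins are cross-shaped trimers of an alpha, a beta and a gamma chain, and with type IV collagen they form the basement membrane that surrounds each sensory neuron and its satellite glia. Osteopontin is a secreted phosphoprotein with an RGD motif for integrins, best known from bone and inflamed tissue; in the rat it has also been described in large dorsal root ganglion neurons.

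In each library 13237 to 13960 rows were at 1 TPM or more, and correlations of log2 values were 0.963 to 0.973 among KO libraries, 0.949 to 0.968 among WT libraries and 0.925 to 0.964 between the groups. Dicer1 was at 23.96, 20.8 and 21.8 TPM in KO libraries and at 36.7, 25.99 and 48.7 TPM in WT libraries. Its groups did not overlap, but the log2 difference of -0.68 did not pass the test (limma adjusted p = 0.104), and a whole-gene value does not isolate the deleted exons. Parvalbumin itself, which defines the cells, was at 4.02, 3.69 and 13.98 TPM in KO libraries and at 25.1, 19.7 and 23.1 TPM in WT libraries. All 11 sensory neuron and all 12 proprioceptor markers found in the table were above 0. The sensory neuron markers summed to 52606.1 to 54736.5 TPM in KO libraries and to 57044.9 to 69866.9 TPM in WT libraries. Of the 11, Rbfox3 rose by 0.46 (limma adjusted p = 0.0496) and the other 10 did not pass. The proprioceptor markers summed to 739 to 908 TPM in KO libraries and to 1420 to 1525 TPM in WT libraries, and 9 of the 12 fell while 1 rose. Marker lists were chosen with earlier results of these data known, so such counts are descriptions. Of 7 tested nociceptor markers, 6 had log2 differences above 0. Among all 7, Gfra2 rose by 1.48 (limma adjusted p = 0.0467), whereas Tac1 fell by 3.57 (limma adjusted p = 0.0128). Scn10a and Scn11a, named after their values were seen, had log2 differences of 1.93 and 1.42 (limma adjusted p = 0.144 and 0.0917) with all KO libraries above WT. The part of a shift between neuron classes in the values below was not tested. Satellite glia were also represented: all 12 of their markers averaged at least 1 TPM, with sums of 1831, 1793 and 2197 TPM in KO libraries and 2665, 2095 and 3119 TPM in WT libraries. Among them Fabp7 and Gja1, named because they were the ones that passed, fell by 1.75 and 1.53 on the log2 scale (limma adjusted p = 0.0412 and 0.0408). The other 10 did not pass, and 11 of the 12 log2 differences were below 0. S100b, which held much of the sum, had a log2 difference of -0.0093, and Glul, named after its values were seen, had KO values above all WT values (0.65, limma adjusted p = 0.105). Replicate 3 of each group had Xist at 0 TPM in KO and 0.06 TPM in WT, with the Y-linked Ddx3y at 32.7 TPM in KO and 33.3 TPM in WT, whereas Xist was at 22.2 TPM or more in each of the 4 libraries numbered 1 or 2.

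A single gene of the 87, Spp1, passed the test between KO and WT neurons, and it fell. Of the 87 genes, 40 had a mean of at least 1 TPM and were tested, and 47 were below that filter, 7 of them listed at 0 in all 6 libraries. Among the 40, none was called higher, against 1.86% of all 13787 rows tested, 1 was called lower, against 3.17% of all rows, and 39 were not called. In either direction 5.03% of all rows were called (limma on log2(TPM + 1), Benjamini-Hochberg adjusted p below 0.05). At an unadjusted p below 0.05 there were 2 genes with higher values in KO (Cd44 and Itga3) and 6 with lower values (Spp1, Itga9, Col28a1, Col8a1, Itga4 and Itgb3), and 23.8% of all rows were below that p. KO and WT values did not overlap for 5 genes, Cd44 and Itga3 with all KO libraries above WT and Spp1, Itga4 and Itga9 with all KO libraries below, whereas 28.9% of all rows had groups without overlap. The log2 differences of the 40 ranged from -1.47 to 1.31 with a median of -0.21, 14 above and 26 below 0. Of all 13787 rows tested, 6203 were above and 7584 below 0, with a median of -0.05. Under median-of-ratios rescaling the median was -0.16 for the 40 and 0.01 for all rows.

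**Figure D1:**
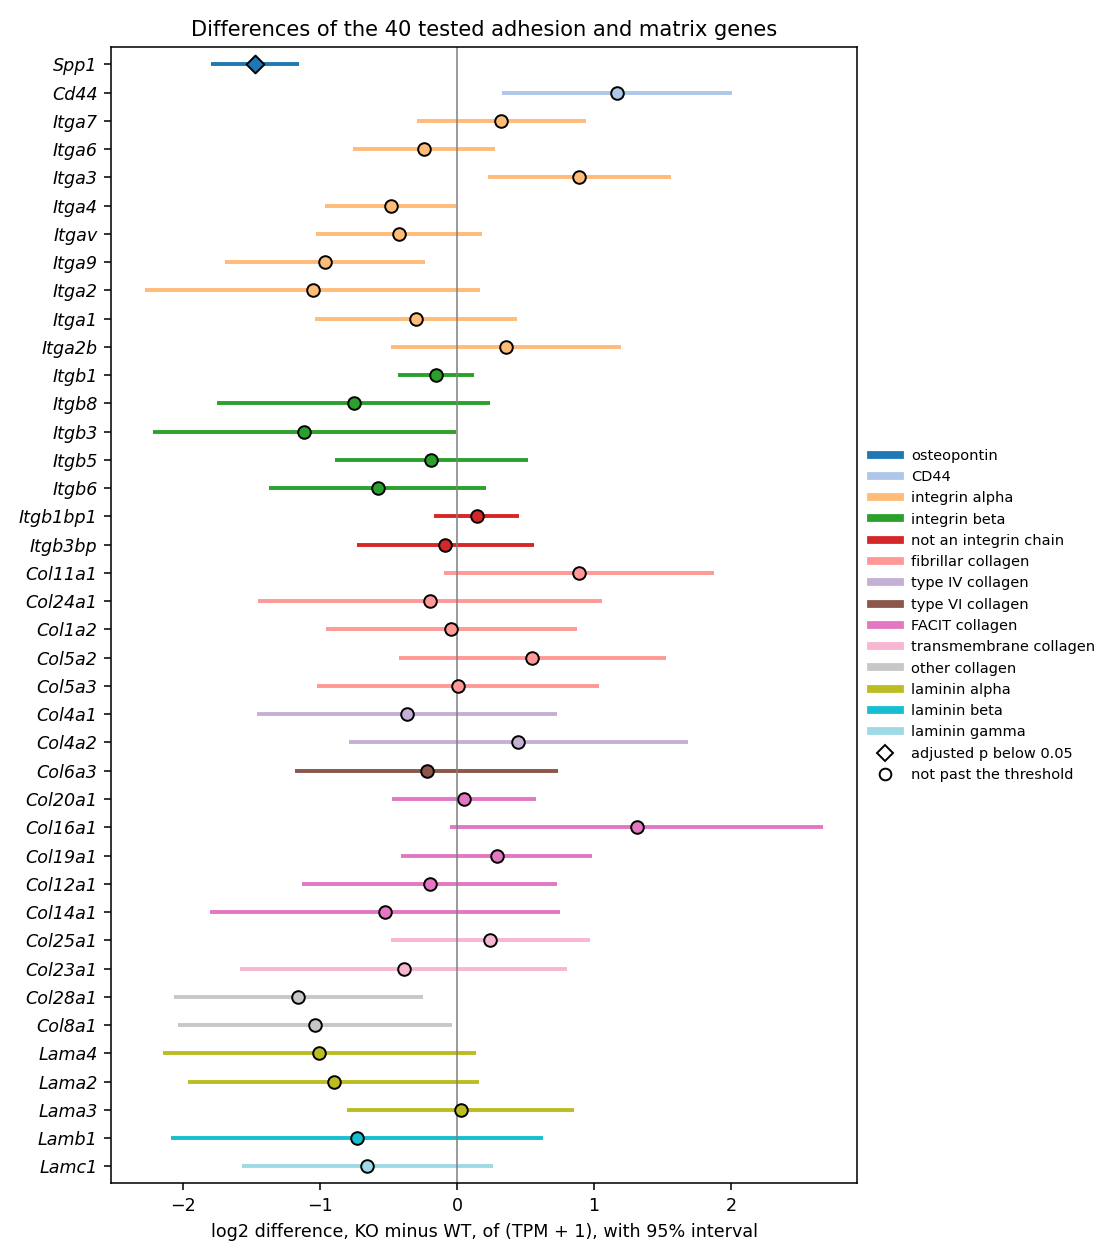
Each row is 1 of the 40 tested genes, grouped and coloured by role, with the log2 difference of KO minus WT on the x axis (log2 of TPM + 1) and its 95% interval from limma as a bar. Spp1, the diamond at -1.47, is the gene past the threshold; the interval also lies on one side of 0 for Cd44 and Itga3 (higher) and for Itga9, Itga4, Itgb3, Col28a1 and Col8a1 (lower), none of which passed after adjustment.

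Spp1 was the most abundant of the 87 genes in WT neurons and less abundant in every KO library. It was at 209, 162 and 212 TPM in KO libraries and at 542, 477 and 603 TPM in WT libraries. The highest KO value was thus below the lowest WT value, and the values within each group were close to each other. The means were 194 ± 28.3 TPM in KO and 541 ± 63.0 TPM in WT (SD, n = 3 each), a WT level 2.78 times the KO level. Spp1 fell by 1.47 on the log2(TPM + 1) scale (SE 0.14, 95% interval -1.79 to -1.16, limma adjusted p = 0.00197). The call held under all 20 alternatives tried, with adjusted p from 0.00113 to 0.0224 and log2 differences from -1.56 to -1.25. The smallest difference, -1.25 (adjusted p = 0.0137), came from the fit that held the mean log2 level of satellite glia markers as a covariate. Because Spp1 was so abundant, its lower level changed the make-up of the whole set: Spp1 made up 26.99% ± 0.91 of the summed TPM of the 87 genes in KO libraries and 49.2% ± 2.46 in WT libraries (SD, n = 3 each). Without Spp1 the sums overlapped, at 550, 462 and 561 TPM in KO libraries and 523, 470 and 697 TPM in WT libraries. In bulk libraries of this kind, fewer Spp1-expressing cells and less Spp1 RNA per cell cannot be told apart.

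Spp1 lies on the forward strand of chromosome 5, from 104435118 to 104441050 (GRCm38). Its proximal promoter is shown because it is the 1 gene that passed, and because Runx3, a transcription factor of proprioceptors, and the estrogen-related receptor genes Esrrb and Esrrg were lower in the same KO libraries, by 1.59, 1.82 and 1.32 on the log2 scale (limma adjusted p = 0.0169, 0.013 and 0.00403). The RefSeq sequence of the 250 bases before the first annotated start, chr5:104434861-104435110 (GRCm38.p6, forward strand), is printed 5′ to 3′, with the match to the RUNX motif in capitals.
Spp1 promoter: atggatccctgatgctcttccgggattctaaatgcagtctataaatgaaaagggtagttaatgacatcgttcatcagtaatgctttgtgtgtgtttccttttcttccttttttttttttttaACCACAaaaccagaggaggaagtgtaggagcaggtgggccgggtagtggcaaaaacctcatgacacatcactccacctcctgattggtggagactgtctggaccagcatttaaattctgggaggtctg
The RUNX motif searched was TGTGGT on either strand (ACCACA on the other), and its 1 match begins 128 bases before the start. The motif of estrogen-related receptors, AAGGTCA or TGACCTT on the other strand, had 0 matches in this window, and a second annotated Spp1 start had 0 matches of either. The motifs do not overlap each other. Of all 32851 mouse promoter windows of the same length, 14% held the RUNX motif and 4.08% the other. Among 69 windows of 63 of the 87 genes the shares were 8.7% and 7.25%. A match of these letters is a description of the window and does not show that a factor binds there. Whether the lower levels of Runx3, Esrrb and Esrrg have any part in the Spp1 values was not tested.

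The known receptors of osteopontin gave mixed values, none past the test. Cd44, a cell surface glycoprotein that binds hyaluronan and osteopontin, was at 8.84, 13.2 and 4.40 TPM in KO libraries and at 3.37, 2.20 and 3.76 TPM in WT libraries. All KO values were above all WT values, but KO replicate 3 was within 1 TPM of the highest WT library. The log2 difference was 1.17 (SE 0.37, 95% interval 0.33 to 2.01, limma adjusted p = 0.101). Without KO replicate 3 it was 1.54 and passed (limma adjusted p = 0.044), and over the other alternatives it did not pass.

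Among the integrin chains that bind osteopontin, Itga4 and Itga9, named after their values were seen, both had lower KO values in every library. Itga9 recognises a site in osteopontin that is exposed by thrombin, and it was at 1.59, 3.57 and 3.73 TPM in KO libraries and at 6.70, 5.02 and 7.97 TPM in WT libraries. The WT mean was 2.21 times the KO mean, and the log2 difference of -0.96 (SE 0.32) did not pass (limma adjusted p = 0.113). Itga4, the alpha chain of the receptor for fibronectin and VCAM-1, was at 13.6, 11.1 and 8.71 TPM in KO libraries and at 14.5, 14.8 and 18.3 TPM in WT libraries. The groups lay close together, with the highest KO and the lowest WT library less than 1 TPM apart, and the log2 difference was -0.48 (SE 0.21, limma adjusted p = 0.205).

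The tested RGD-binding alpha chains and their beta partners had overlapping groups. Itgb3, the beta chain that pairs with alpha v to bind vitronectin and osteopontin, was at 3.0, 0.77 and 7.09 TPM in KO libraries and at 6.34, 6.99 and 8.91 TPM in WT libraries. Its KO values spread widely while the WT values were close together, and KO replicate 3 lay inside the WT range. The log2 difference was -1.11 (SE 0.49, limma adjusted p = 0.207), and without KO replicate 2 it was -0.55. Itgav, chosen after its values were seen as the partner of Itgb3, was at 5.92, 5.53 and 6.75 TPM in KO libraries and at 7.57, 6.39 and 12.3 TPM in WT libraries (log2 difference -0.42, limma adjusted p = 0.378). Itgb5 and Itgb6, which also pair with alpha v, had log2 differences of -0.19 and -0.58 and overlapping groups. Itga8, the alpha chain of the nephronectin receptor, reached 1.06 TPM in KO replicate 1 and was at 0.58 TPM or less in the other 5 libraries, below the filter. Itga2b, the platelet alpha chain, overlapped as well (log2 difference 0.36), and Itga5, the fibronectin receptor chain, was untested, at 0.20, 0.20 and 0.44 TPM in KO libraries and 0.09, 0 and 0 TPM in WT libraries, without overlap; both are named after their values were seen.

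**Figure D2:**
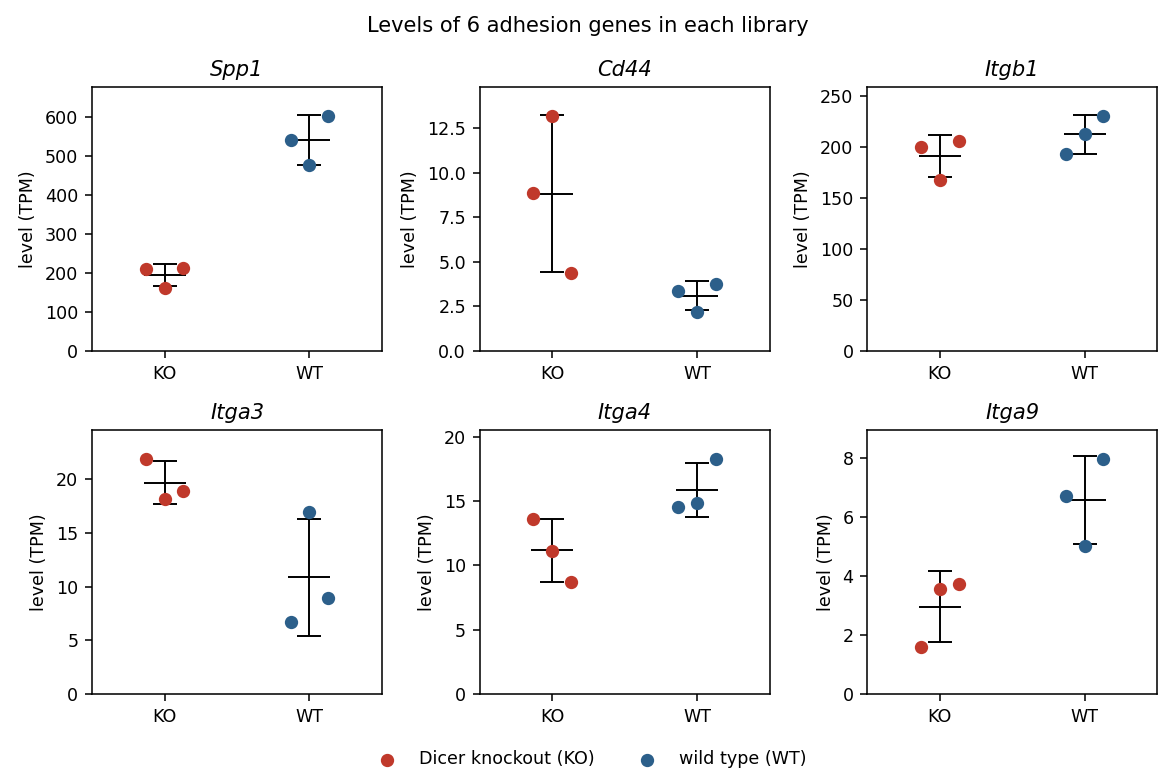
TPM of Spp1, Cd44, Itgb1, Itga3, Itga4 and Itga9 in the 3 KO libraries (red, left) and the 3 WT libraries (blue, right); points are libraries, and the horizontal lines are the mean and 1 SD on either side. Spp1 lies between 162 and 212 TPM in KO and between 477 and 603 TPM in WT, whereas Itgb1 overlaps and Itga4 and Cd44 come within 1 TPM of overlap.

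Integrin beta 1 was the dominant beta chain in both groups and differed little between them. Itgb1, which pairs with most of the alpha chains measured here, was at 200.2, 167 and 206 TPM in KO libraries and at 194, 213 and 231 TPM in WT libraries. Its log2 difference was -0.15 (SE 0.12, limma adjusted p = 0.49), with a 95% interval of -0.43 to 0.13. It held 86.8% to 95.3% of the summed TPM of the 9 beta chains in the 6 libraries. Itgb8, which binds latent TGF-beta, was the next most abundant, at 7.32, 3.22 and 12.2 TPM in KO libraries and 12.1, 7.46 and 19.1 TPM in WT libraries (log2 difference -0.75, limma adjusted p = 0.338). All 5 tested beta chains had a value below 0 (median -0.58), and none passed.

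The alpha chains were led by the laminin receptors Itga7, Itga6 and Itga3, and Itga3 had the higher KO values. Itga3, which binds laminins with the alpha 3 or alpha 5 chain, was at 21.9, 18.2 and 18.9 TPM in KO libraries and at 6.68, 16.99 and 8.93 TPM in WT libraries. The groups did not overlap, but WT replicate 2 was close to the KO libraries and far from the other WT libraries. The log2 difference was 0.89 (SE 0.30, 95% interval 0.22 to 1.56, limma adjusted p = 0.111). Without WT replicate 2 it was 1.24 (limma adjusted p = 0.0263), and with neither KO replicate 2 nor WT replicate 2 it was 1.29 (limma adjusted p = 0.0386).

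Itga7, a laminin receptor best known from muscle, was at 49.6, 47.5 and 39.9 TPM in KO libraries and at 45.3, 21.8 and 47.6 TPM in WT libraries. WT replicate 2 was the low library here, and the remaining 5 lay between 39.9 and 49.6 TPM (log2 difference 0.32, limma adjusted p = 0.508). Itga6, which pairs with beta 1 or beta 4 on laminin, was at 30.0, 24.2 and 41.6 TPM in KO libraries and at 28.5, 41.0 and 43.2 TPM in WT libraries (log2 difference -0.24, limma adjusted p = 0.563). With neither replicate 2 the signs of both turned, to -0.06 for Itga7 and 0.009 for Itga6. These 3 laminin-binding chains together made up 77.2% ± 1.40 of the summed alpha chain TPM in KO libraries and 68.2% ± 1.63 in WT libraries (SD, n = 3 each). The KO libraries lay between 75.9% and 78.7% and the WT libraries between 67.1% and 70.1%, so that the shares did not overlap. The shares are a description and were not tested. The summed level of the 3 chains did overlap, at 101.5, 89.9 and 100.3 TPM in KO libraries and 80.5, 79.8 and 99.7 TPM in WT libraries. The share of Itga3 alone was 15.6% ± 0.78 in KO and 8.85% ± 5.27 in WT libraries, with WT replicate 2 at 14.9%.

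The summed alpha chain level itself overlapped between groups, at 134, 116 and 128 TPM in KO libraries and 120.0, 114 and 148 TPM in WT libraries. The collagen-binding chains Itga1 and Itga2, named after their values were seen, were low, with means of 1.60 and 1.83 TPM in KO and 2.23 and 4.03 TPM in WT libraries, and overlapped. None of the 5 leukocyte alpha chains passed the filter. Of these, Itgae was at 1.08, 1.01 and 1.01 TPM in KO libraries and at 0.20, 0.40 and 0.75 TPM in WT libraries, and Itgam had its highest value, 1.80 TPM, in KO replicate 2. The macrophage markers were low in both groups, summing to 5.74 to 6.70 TPM in KO libraries and 6.34 to 9.05 TPM in WT libraries, with C1qa at 0 in all 6.

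Neither tested gene that shares the integrin name without encoding a chain passed. Itgb1bp1, whose product ICAP1 binds the tail of integrin beta 1, averaged 48.6 ± 5.51 TPM in KO and 43.8 ± 3.15 TPM in WT libraries (SD, n = 3 each; log2 difference 0.14, 95% interval -0.17 to 0.45). Itgb3bp, a centromere protein that also binds the beta 3 tail, averaged 7.39 ± 2.54 TPM in KO and 7.80 ± 1.96 TPM in WT libraries. Itgb1bp2, the muscle protein melusin, was at 1.22 TPM in WT replicate 2 and at 0.34 TPM or less elsewhere.

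**Figure D3:**
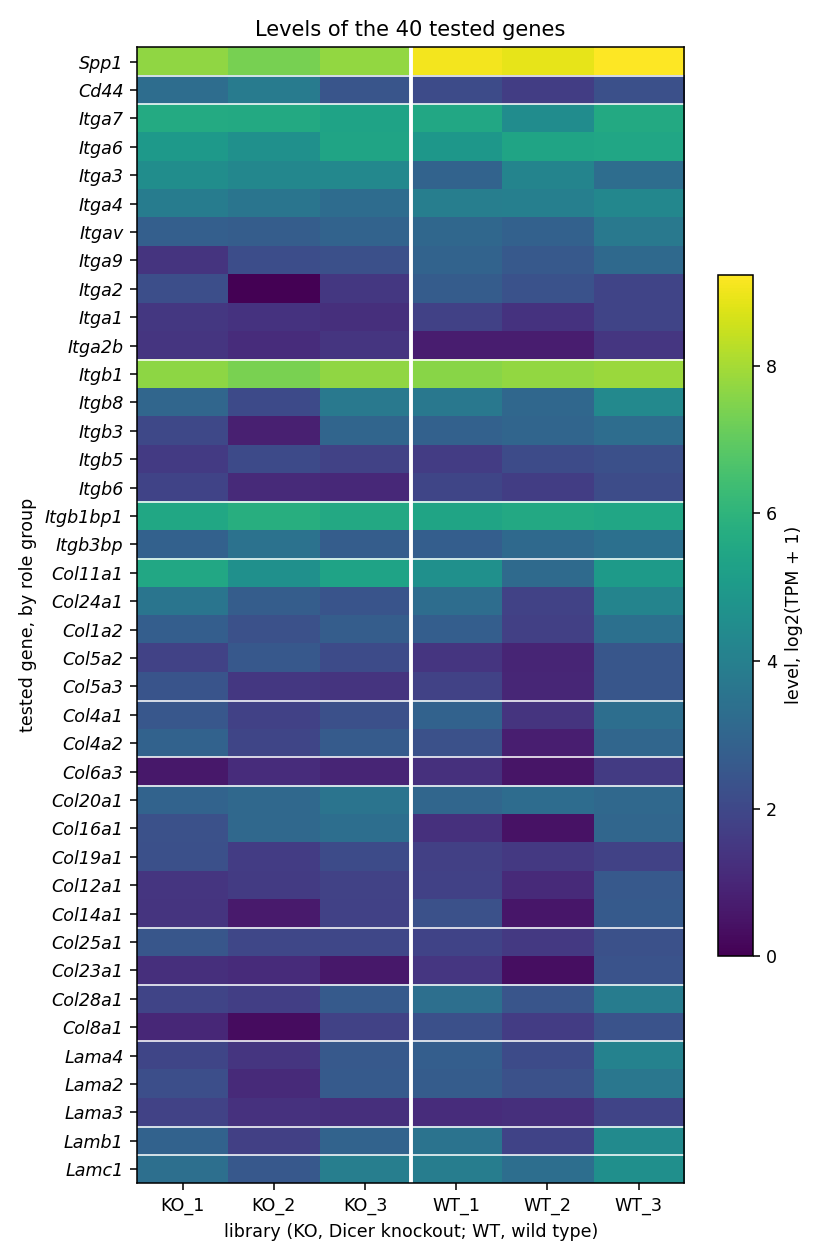
Levels of the 40 tested genes as log2(TPM + 1), 1 row per gene ordered by role and mean, with the 3 KO libraries left of the white line and the 3 WT libraries right of it. Spp1 and Itgb1 are the brightest rows, and the column of WT replicate 2 is the darkest of the WT columns in 16 of the 17 collagen rows.

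Laminin chains were low, 4 of the 5 tested had log2 differences below 0 with overlapping groups, and none passed. Lamc1, the gamma chain of most laminins, was at 9.47, 4.84 and 14.3 TPM in KO libraries and at 14.1, 9.01 and 23.3 TPM in WT libraries (log2 difference -0.66, SE 0.40, limma adjusted p = 0.364). Lamb1 was at 6.51, 2.40 and 6.64 TPM in KO libraries and at 10.3, 2.65 and 20.6 TPM in WT libraries (log2 difference -0.73, SE 0.60, limma adjusted p = 0.498). In both genes replicate 2 was the lowest library of its group. Lama4, the alpha chain of vessel and nerve basement membranes, was at 2.86, 1.71 and 4.94 TPM in KO libraries and at 5.84, 3.29 and 16.2 TPM in WT libraries (log2 difference -1.01, SE 0.50, limma adjusted p = 0.266). Lama2, the merosin chain of muscle and Schwann cell basement membranes, was at 3.70, 1.16 and 5.15 TPM in KO libraries and at 5.43, 3.94 and 11.8 TPM in WT libraries (log2 difference -0.90, SE 0.47, limma adjusted p = 0.283). WT replicate 3 had the highest value of all 6 libraries for each of these 4 chains, and without it the log2 differences of Lama4 and Lama2 were -0.45 and -0.51.

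Lama3, a chain of epithelial laminins, averaged 1.81 ± 0.66 TPM in KO and 1.79 ± 0.84 TPM in WT libraries. The other 5 laminin genes were below the filter. Lama1 had 1.24 TPM and Lamb2 1.01 TPM in their highest libraries, both WT, and Lamc3 was listed at 0 throughout. Summed over the 10 chains, the level was 26.6, 12.6 and 34.1 TPM in KO libraries and 38.1, 22.4 and 76.8 TPM in WT libraries. The laminin and satellite glia sums were each lower in KO on average, but for both the groups overlapped. WT replicate 3 was the highest and KO replicate 2 the lowest library for both sums. In the fit with the satellite glia covariate the log2 differences of Lama4 and Lama2 were -0.005 and -0.01, and those of Lamb1 and Lamc1 were 0.50 and 0.17. Of the 12 markers in that covariate, 11 had log2 differences below 0, so the fit cannot separate satellite glia RNA from genotype. The part of satellite glia RNA in these laminin values was not tested.

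**Figure D4:**
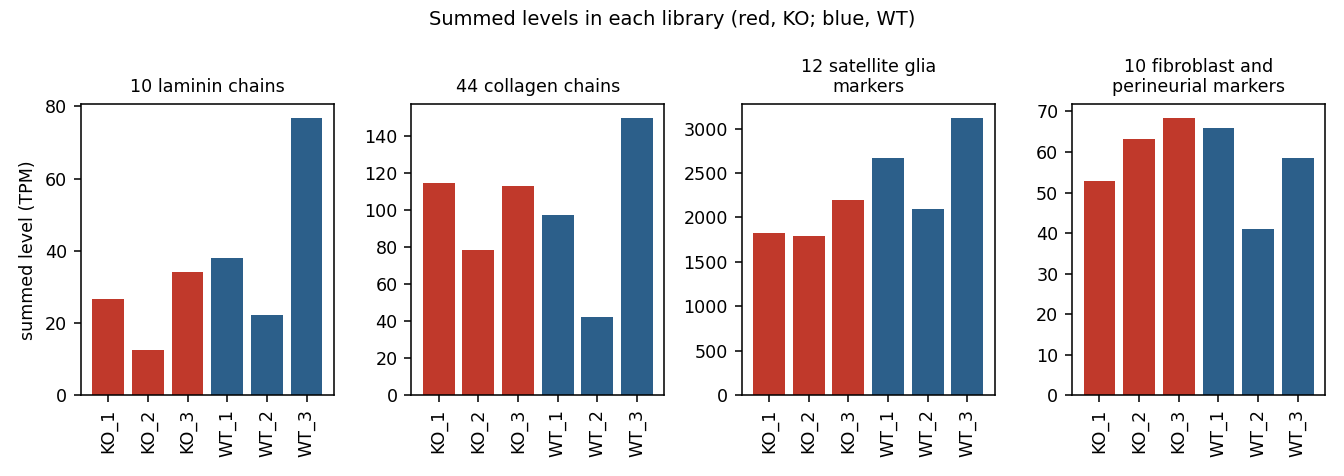
Summed TPM in each library of the 10 laminin chains, the 44 collagen chains, 12 satellite glia markers and 10 fibroblast and perineurial markers, with a separate y axis from 0 for each panel, KO in red on the left and WT in blue on the right. WT replicate 3 is highest and WT replicate 2 lowest of the WT libraries in the first 3 panels, and fibroblast and perineurial sums overlap, at 52.7 to 68.4 TPM in KO and 41.0 to 65.8 TPM in WT.

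Of the 44 collagen genes 17 were tested, with 8 values above and 9 below 0, a median log2 difference of -0.04 and no call; Col28a1 and Col8a1 were below an unadjusted p of 0.05. Col11a1, a minor chain of fibrillar collagen, was by far the most abundant collagen transcript. It was at 45.7, 23.7 and 39.9 TPM in KO libraries and at 23.7, 8.21 and 31.7 TPM in WT libraries. KO replicate 2 was at the level of WT replicate 1 and below WT replicate 3, so the groups overlapped (log2 difference 0.89, SE 0.44, limma adjusted p = 0.254). Col11a1 made up 35.2% ± 4.81 of the summed collagen TPM in KO libraries and 21.7% ± 2.47 in WT libraries (SD, n = 3 each). The shares ranged from 30.3% to 39.9% in KO and from 19.5% to 24.3% in WT and did not overlap. In the fit with the satellite glia covariate the log2 difference was 1.74 and passed (limma adjusted p = 0.0352). That was 1 of 20 alternatives, and Col11a1 passed in no other. As said for the laminins, this fit cannot separate satellite glia RNA from genotype.

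The other fibrillar collagens were lower and varied between libraries more than between groups. Col24a1 was at 11.2, 5.67 and 4.25 TPM in KO libraries and at 8.94, 2.57 and 17.2 TPM in WT libraries (log2 difference -0.20). Col1a2, a chain of type I collagen, averaged 5.12 ± 1.11 TPM in KO and 5.90 ± 3.63 TPM in WT libraries (log2 difference -0.04). Its partner chain Col1a1, which fibroblasts make in large amounts, was at 0, 0.09 and 1.13 TPM in KO libraries and at 0.08, 0 and 0 TPM in WT libraries. Col3a1 and Col27a1 also stayed under the filter, with their highest values of 1.60 and 1.01 TPM in WT replicate 1.

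The fibril-associated collagens and the remaining types held both the highest and the lowest collagen differences. Col16a1 was at 3.84, 7.60 and 9.13 TPM in KO libraries and at 1.44, 0.38 and 7.18 TPM in WT libraries. It had the highest log2 difference of the 40 genes, 1.31, with a wide 95% interval of -0.05 to 2.67 (limma adjusted p = 0.225), because WT replicate 3 lay among the KO libraries. Col28a1, a collagen of peripheral nerve basement membranes, was at 2.72, 2.28 and 5.12 TPM in KO libraries and at 9.48, 4.43 and 13.6 TPM in WT libraries. WT replicate 2 was below KO replicate 3, and the log2 difference was -1.16 (SE 0.40, limma adjusted p = 0.123). In the fit with the satellite glia covariate it was -0.42. Col8a1, a short-chain collagen of vessel walls, averaged 1.27 ± 1.17 TPM in KO and 3.36 ± 1.11 TPM in WT libraries (log2 difference -1.04, limma adjusted p = 0.197).

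Col20a1 averaged 8.32 ± 2.10 TPM in KO and 7.87 ± 0.65 TPM in WT libraries (SD, n = 3 each). Its log2 difference was 0.05, with a 95% interval of -0.48 to 0.58. The basement membrane chains Col4a1 and Col4a2, whose genes lie head to head and whose products form 1 trimer, had values of opposite sign. Col4a1 averaged 3.65 ± 1.13 TPM in KO and 5.79 ± 3.86 TPM in WT libraries (log2 difference -0.36), and Col4a2 averaged 4.84 ± 1.84 TPM in KO and 3.99 ± 3.30 TPM in WT libraries (log2 difference 0.45). Col6a3, the 1 tested chain of type VI, averaged 0.90 ± 0.37 TPM in KO and 1.29 ± 0.82 TPM in WT libraries. The transmembrane collagens Col25a1 and Col23a1 had log2 differences of 0.24 and -0.39, and Col19a1, a fibril-associated collagen, 0.29. Below the filter, Col9a2 reached 1.06 TPM in KO replicate 3, and Col15a1 1.08 TPM in WT replicates 1 and 3.

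WT replicate 2 was the lowest WT library for 16 of the 17 tested collagens (94.1%) and for 28 of the 40 tested genes (70%), against 38.4% of all rows. KO replicate 2 was the lowest KO library for 21 of the 40 (52.5%), against 47.7% of all rows. Summed over the 44 collagens, the level was 115, 78.3 and 113 TPM in KO libraries and 97.4, 42.2 and 149 TPM in WT libraries, so the WT libraries spanned a wider range than the KO libraries. The median log2 difference of the tested genes was -0.50 without WT replicate 2 and 0.04 without WT replicate 3, against -0.21 with all libraries.

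Genes that work with these receptors and matrix proteins were examined in 6 lists of 144 names, of which 139 were in the table and 99 were tested. Of the 99, 3 rose and 2 fell, a share close to the 5.03% called over all rows, so the count does not set these lists apart. Both adhesion coreceptors that rose bind laminin or laminin receptors. Bcam, the Lutheran glycoprotein that binds laminin alpha 5, was at 176, 149 and 189 TPM in KO libraries and at 97.9, 119 and 99.1 TPM in WT libraries. It rose by 0.70 on the log2 scale (SE 0.13, limma adjusted p = 0.0232). Cd151, a tetraspanin that binds integrin alpha 3 beta 1, was at 189, 225 and 229 TPM in KO libraries and at 154, 134 and 130.3 TPM in WT libraries, and rose by 0.61 (SE 0.12, limma adjusted p = 0.0268). The KO libraries were above the WT libraries for both. Leaving out KO replicate 1, KO replicate 3 or WT replicate 3 ended both calls, and leaving out KO replicate 2 or WT replicate 2 also ended that of Cd151 (limma adjusted p up to 0.0977 over these fits). Over all 20 alternatives the call of Bcam ended in 7 and that of Cd151 in 10 (limma adjusted p up to 0.150 and 0.172).

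The tissue inhibitors of metalloproteinases, which block the enzymes that cut matrix proteins, moved in opposite directions. Timp2 was at 1158, 1115 and 1076 TPM in KO libraries and at 621, 727 and 652 TPM in WT libraries, and rose by 0.75 (SE 0.10, limma adjusted p = 0.00697). Its call ended in 3 of the 20 alternatives (limma adjusted p up to 0.067). They were the Xist-expressing libraries alone, the satellite glia covariate and no trend. Timp3, the matrix-bound inhibitor, was at 32.4, 12.8 and 43.9 TPM in KO libraries and at 113, 131 and 117 TPM in WT libraries. Every KO value of Timp3 was below every WT value. Timp3 fell by 2.14 (SE 0.36, limma adjusted p = 0.0146), more than Spp1, and without KO replicate 1 the limma adjusted p was 0.0518. The satellite glia covariate and the fit with no trend also ended the call of Timp3 (limma adjusted p up to 0.088). The remaining 13 tested genes of proteases and inhibitors did not pass.

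Zyx, which encodes the focal adhesion protein zyxin, was the 1 gene of 22 tested adhesion adaptors to pass. It was at 72.8, 60.2 and 82.6 TPM in KO libraries and at 125, 116 and 121 TPM in WT libraries, and fell by 0.75 (SE 0.14, limma adjusted p = 0.0188). Leaving out KO replicate 1, KO replicate 2 or WT replicate 3 ended the call (limma adjusted p = 0.0713, 0.056 and 0.0647). Over all 20 alternatives the call of Zyx ended in 7 (limma adjusted p up to 0.111). Tns1 and Tln2, the most abundant adaptors, had log2 differences of 0.24 and -0.22. None of the 23 tested other matrix proteins and none of the 20 tested genes of collagen biosynthesis passed (limma), and 4 of the 23 and 2 of the 20 were below an unadjusted p of 0.05, against 23.8% of all rows. Sparcl1 and Hapln4, the most abundant of the matrix proteins, had log2 differences of -0.41 and -0.38 and groups that did not overlap. Sparcl1 passed without WT replicate 1 (-0.49, limma adjusted p = 0.0471). Of the collagen biosynthesis genes Ppib and Sec23a were the most abundant, with -0.54 and -0.02, and Ppib passed without KO replicate 3 (-0.76, limma adjusted p = 0.0308). Adamts2, named after its values were seen, passed under median-of-ratios rescaling, quantile normalization and summing of rows that share a name. Bsg and Lgals1 led the coreceptors, with -0.28 and 0.09.

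Ibsp, which encodes bone sialoprotein and lies beside Spp1 in the family of small secreted integrin-binding phosphoproteins, was the 1 tested relative of osteopontin. It was at 26.6, 33.5 and 27.6 TPM in KO libraries and at 21.1, 15.9 and 39.2 TPM in WT libraries. The WT libraries bracketed the KO libraries, and the log2 difference was 0.29 (95% interval -0.37 to 0.94, limma adjusted p = 0.587).

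Because Dicer makes microRNAs, the 3′ UTRs of the 87 genes were searched for sites of miR-29, known for its many sites in collagen transcripts, and of let-7. MicroRNA levels were not measured in these libraries. The mature miR-29 sequences of RefSeq (GRCm38.p6) share the seed at bases 2 to 8, given in capitals, and are shown because the sites below pair with it.
mmu-miR-29a-3p: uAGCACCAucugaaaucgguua
mmu-miR-29b-3p: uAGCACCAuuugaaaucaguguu
mmu-miR-29c-3p: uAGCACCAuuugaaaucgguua
mmu-let-7a-5p: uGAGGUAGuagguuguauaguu
The matching 7-base site is TGGTGCT for miR-29 and CTACCTC for let-7. At least 1 miR-29 site was found in 33 of the 87 genes (37.9%), against 13.6% of 19542 names with an annotated 3′ UTR, while the median UTR length was 1080 bases for the 87 and 1000 bases for all. The sites were mostly in collagens, with 25 of 44 (56.8%), including 6 of 6 type IV chains. They were found in 5 of 27 integrin chains and in 1 of 10 laminins, Lamc1. For let-7 the counts were 15 of 87 (17.2%), against 9.32% of all names.

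The miR-29 sites of the 7 tested members with a site and the largest absolute log2 differences, chosen after their values were seen, are printed so that sequence and value can be read together. They are given with flanks from GENCODE annotation on GRCm38, 5′ to 3′ on the gene's strand, with the bases that match the seed in capitals. On the forward strand lie Col16a1 at chr4:130099256-130099277, Itgb3 at chr11:104670079-104670104, Itga9 at chr9:118898320-118898345 and chr9:118900624-118900649, and Col11a1 at chr3:114219071-114219096 and chr3:114219121-114219146. On the reverse strand lie Cd44 at chr2:102812872-102812897, Col8a1 at chr16:57624699-57624724 and Lamc1 at chr1:153220062-153220087.
Col16a1: atggggttccccTGGTGCTgca
Cd44: ggctgtgtttgtTGGTGCTttcacaa
Itgb3: gaatgaggcttgTGGTGCTtgggcgg
Col8a1: tatattctaccaTGGTGCTaatatca
Itga9 first site: gtccccaactggTGGTGCTgcagata
Itga9 second site: ccgggtgtggcgTGGTGCTctctata
Col11a1 first site: tttggatttcgtTGGTGCTgtagaaa
Col11a1 second site: tcatttaaaaaaTGGTGCTcattccc
Lamc1: tatctgacacacTGGTGCTattaatt
These genes share the 7 bases and had log2 differences of 1.31, 1.17, -1.11, -1.04, -0.96, 0.89 and -0.66 in the order printed. Both signs occurred among them, but none of these genes passed the test (limma adjusted p from 0.101 to 0.364), so the signs are a description. Spp1 has no site of miR-29 or let-7 in its annotated 3′ UTR of 432 bases.

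Values of both signs were found with and without a miR-29 site. The 16 tested members with a site had a median log2 difference of -0.18 (from -1.11 to 1.31), with 7 values above and 9 below 0 and 0 calls, and the 24 without had a median of -0.27 and 1 call, Spp1. Over all 12104 tested names with an annotated 3′ UTR, 1924 had a site, with a median of -0.10, 24 called higher and 51 lower, and the 10180 without had a median of -0.06, with 217 called higher and 349 lower. For let-7 the 9 tested members with a site had a median of -0.48 and the 31 without -0.19, while both medians over all tested names were -0.06. These medians are descriptions, and genes with a site also have longer 3′ UTRs, with a median of 1827 bases against 966 bases among the tested members for miR-29.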

How the data were processed

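RNA isolated with a PicoPure kit was amplified as cDNA with an Ovation kit, sheared and ligated to adapters, per the labels' protocols; amplification from small inputs adds noise to rare transcripts. Reads were handled with cutadapt, Bowtie2 and RSEM 1.2.7 on build mm10, per the submitters' processing notes, which name no annotation. In the deposited file each library has its own column of TPM, computed by the authors, and replicates were not pooled. TPM keeps no depth, so the precision from depth is unknown, and RSEM divides reads between similar transcripts by a model.

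The 31469 rows were filtered at a mean of 1 TPM over the 6 libraries, and 13787 were tested in R 4.3.3 with limma 3.58.1, using log2(TPM + 1), a trended prior and genotype as the single term. Tests were two-sided, with Benjamini-Hochberg adjustment over all rows and a threshold of 0.05. Differences are KO minus WT and understate those of low genes. The test was also run on simulated data with known changes. Their noise was normal and independent, with variances from the same fit, so that run does not cover shifts shared by many genes of a library. The members, the partner and marker lists and the tests were chosen with earlier results of these data known. The text names Spp1, Cd44, every called gene, the 3 most abundant tested members of each role group, the 2 most abundant tested genes of each partner list, and untested members reaching 1 TPM in any library; other genes are named after their values were seen. Gene coordinates and 3′ UTRs were taken for all 87 members, by symbol, from GENCODE release vM21 (GRCm38) and searched with Python 3.11.15. Promoters and microRNAs came from RefSeq tables (GRCm38.p6). Alternatives covered the pseudocount, the filter, the scaling, each library left out, a replicate block, sex, the satellite glia level, library weights, the trend, rows sharing a name and, chosen after seeing the data, both replicates numbered 2 left out. Leave-out fits recomputed the filter.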

Additional observations from a re-analysis of the deposited data

How the results depend on the processing

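Spp1 stayed called lower under all 20 alternatives, and the count of members called lower was 1 in each. The count called higher was 0, but 1 without KO replicate 3 (Cd44), without WT replicate 2 (Itga3), with the satellite glia covariate (Col11a1) and with neither KO_2 nor WT_2 (Itga3), so that it ranged from 0 to 1 over the fits with 1 library left out. Over those fits, partner genes called higher ranged from 1 to 3 and lower from 0 to 4. Partner calls, higher and lower, were 0 and 1 in the Xist-expressing libraries alone, 0 and 0 with the satellite glia covariate and 0 and 0 with no trend. With neither KO_2 nor WT_2, Bcam and Timp2 were called higher and Timp3 lower. The cause was not tested. Same-numbered libraries had correlations of their deviations of 0.05, 0.07 and 0.04, and 2 of 3 KO libraries correlated best with their own number. Whether the numbers pair the samples cannot be told from these values. With the replicate block 1 partner was called higher and 4 lower.

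Values of uncalled genes changed sign as follows. Median-of-ratios rescaling gave 0.0189 for Col1a2 and 0.0496 for Sec23a, and quantile normalization 0.00658 and 0.0342. The Xist-expressing libraries alone gave -0.13 for Col20a1, 0.60 for Col24a1, 0.27 for Col1a2, 0.22 for Itgb3bp, 0.30 for Col23a1 and 0.00502 for Col4a1. The satellite glia covariate gave 0.56 for Col24a1, 0.67 for Col1a2, 0.13 for Itgb8, 0.50 for Lamb1, 0.17 for Lamc1, 0.18 for Col23a1, 0.47 for Col4a1 and 0.11 for Col6a3. Neither KO_2 nor WT_2 gave -0.061 for Itga7, 0.00902 for Itga6, -0.0595 for Lgals1, 0.000765 for Sec23a and -0.0846 for Ibsp. With 1 library left out, the ranges that crossed 0 were -0.16 to 0.26 for Lama3, -0.48 to 0.35 for Col1a2, -0.0080 to 0.19 for Lgals1, -0.12 to 0.19 for Col20a1, -0.84 to 0.34 for Col24a1, -0.32 to 0.0712 for Itgb3bp, -0.0300 to 0.52 for Itga7, -0.19 to 0.95 for Col4a2, -0.91 to 0.10 for Col23a1 and -0.94 to 0.0393 for Col4a1.

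Over all rows, 256 were called higher and 437 lower. Median-of-ratios rescaling gave 375 and 385 and quantile normalization 389 and 461, no filter 130 and 248, the sex term 192 and 359, the replicate block 188 and 341, the Xist-expressing libraries 65 and 139, the satellite glia covariate 76 and 101, no trend 57 and 168, and neither KO_2 nor WT_2 96 and 144. With 1 library left out the counts ranged from 48 and 116 (without KO replicate 1) to 348 and 487 (without WT replicate 1). TPM carries no depth, so no limit from depth can be given.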

Other observations

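Pmp22, a gene of peripheral myelin, was at a mean of 1223 ± 178 TPM in KO libraries and 480.1 ± 39.4 TPM in WT libraries (SD, n = 3 each; log2 difference 1.34, limma adjusted p = 0.00212). It made up most of the summed level of 8 markers of myelinating Schwann cells, which was 1404, 1290 and 1052 TPM in KO libraries and 533, 462 and 543 TPM in WT libraries. The other 3 tested markers of that list did not pass, among them Drp2 (log2 difference -0.07) and Mbp (-0.94, limma adjusted p = 0.0568), and 4 were below 1 TPM on average. Adamts2, which trims procollagen and was noticed after its values were seen, averaged 2.62 ± 1.43 TPM in KO and 9.03 ± 2.28 TPM in WT libraries (log2 difference -1.54, limma adjusted p = 0.0505). It passed under median-of-ratios rescaling, quantile normalization and summing of rows that share a name.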
